A study of Mus musculus with 13 samples.

Results

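The cytosolic ribosomal proteins form the protein part of the ribosome, and their genes were examined in neonatal mouse microglia. Members were taken by gene symbol alone: symbols beginning with Rpl or Rps followed by a number and an optional letter or copy suffix, the stalk genes Rplp0, Rplp1 and Rplp2, and Rpsa. The deposited table held 90 such rows among 55487 genes, and 85 of them passed the filter on low counts and were tested among 15511 genes. Of the 85, 51 belong to the large subunit and 34 to the small subunit. Symbols of mitochondrial ribosomal proteins (Mrpl, Mrps) and of pseudogene rows with a -ps suffix do not meet the rule.

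Microglia, the resident macrophages of the brain, were selected with magnetic beads against CD11b from whole brains of pups. CON libraries came from control pups and MIA libraries from pups after maternal immune activation, in which the pregnant dam's immune system is stimulated. The titles give postnatal day 4. Which agent the dam received, the strain, the sex and the litters are not stated in the labels used here. Each group had 5 retained libraries, and the titles mark 3 more, CON 6, MIA 6 and MIA 7, as excluded without saying why. Nothing in the labels says that replicates came from separate animals or litters, so p-values measure the spread between these samples only.

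Each ribosome is built from a small subunit, which holds the mRNA and reads its codons, and a large subunit, which joins amino acids and releases the chain through a tunnel. Cells make most ribosomal proteins in matched amounts, and many of the mRNAs begin with a run of pyrimidines at the cap, the 5′ TOP motif, through which mTORC1 and the protein LARP1 adjust their translation. In microglia, as in other macrophages, demand for ribosomes changes with growth and activation. RNA-seq counts the mRNAs, and neither translation nor ribosome number was measured.

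Total counts ran from 25387055 to 35593541 per library. Values below are CPM, counts relative to the library total, scaled by TMM, a factor that aligns the bulk of genes between libraries. The log2 fold changes are MIA over CON from edgeR's quasi-likelihood test, with a threshold of 0.05 on the p-value adjusted by Benjamini-Hochberg over all genes tested. All 14 microglial markers examined (such as Cx3cr1, P2ry12 and Tmem119) were present, and their summed level ran from 30460 to 38190 CPM in CON and from 19860 to 25330 CPM in MIA. The 12 endothelial markers (such as Cldn5 and Pecam1) summed to 1077 to 1615 CPM in CON and 2890 to 4881 CPM in MIA. Neuronal markers, 6 of 10 of them called higher, summed to 62.0 to 82.6 CPM in CON and 117 to 170 CPM in MIA, and 7 erythroid genes (0 called by edgeR, DESeq2 or limma-voom, and 0 at an unadjusted p under 0.05) to 61.3 to 2194 and 1741 to 3049 CPM. Marker levels of several cell types thus differed between groups alongside every result below. In these bulk samples fewer cells of a type and less RNA per cell cannot be told apart.

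Most ribosomal protein genes had slightly lower values in MIA than in CON, but few passed the test, and the summed level of members overlapped between groups. Of the 85 members tested, 78 had a log2 fold change below 0 (91.8%), against 51.1% of all genes tested. The median member stood at a log2 fold change of -0.14, a difference of -9.07%, and the median of all genes at -0.0085. None was called higher, where 5.75% of all genes were, and 4 were called lower, where 4.58% of all genes were. The share of members called lower, 4.71%, was thus close to that of all genes. Members vary together between libraries, so the 78 below 0 are not independent observations. At an unadjusted p under 0.05 by edgeR, 0 of the 85 members were higher and 19 of the 85 lower, against 11.4% and 11.3% of all genes. DESeq2 and limma-voom also called 0 members higher, against 7.99% and 6.19% of all genes. They called 7 (8.24%) and 5 (5.88%) members lower, against 6.92% and 4.61% of all genes. All 5 MIA libraries lay above all 5 CON libraries in 0 members and below them in 4, against 5.59% and 4.36% of all genes. The 12 endothelial markers were all called higher (median log2 fold change 1.41) and the 14 microglial markers all called lower (median -0.57) in the same fit; their part in the ribosomal protein result was not tested.

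The differences were small and the measurement was tight. The median standard deviation of a member within groups was 0.12 on the log2 scale, against 0.29 for all genes. In 80 of the 85 members (94.1%) the 95% interval of the log2 fold change lay within ±0.5, that is within 1.41-fold in either direction, against 35.5% of all genes tested. The median level was 265 CPM for members and 13.8 CPM for all genes tested, and no comparison at matched level was made. In a list of 16 elongation factors and other TOP genes, with a median of 264 CPM, the median standard deviation was 0.10. All 16 intervals of that list lay within ±0.5. The members outside those bounds were Rpl39l and Rpl6l, which are among the 3 members under 10 CPM, with Rpl12, Rps29 and Rpl38, whose intervals each passed 0.5 in 1 direction. The values of all members with their intervals are shown in the plot of fold changes by subunit.

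**Figure D1:**
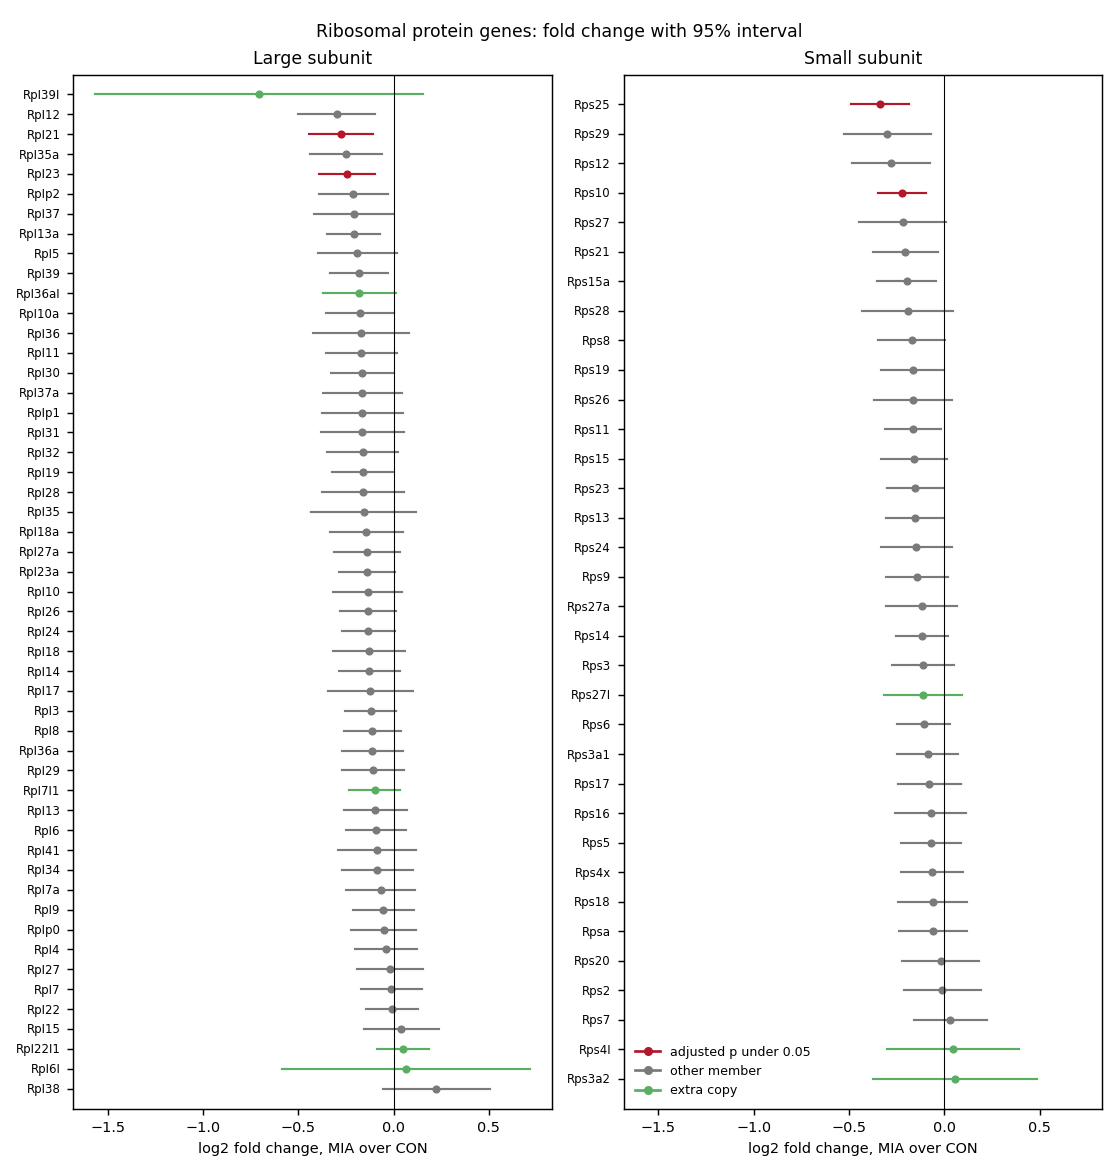
Log2 fold change (MIA over CON, x axis) of each of the 85 ribosomal protein genes tested, with its 95% interval from the edgeR fit, for the large subunit (left) and the small subunit (right). Points lie below 0 for 78 of 85 genes, and the 4 called genes are in red.

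The small-subunit gene Rps25 had the lowest adjusted p. It encodes a protein that several viral internal ribosome entry sites need to bind the ribosome. Rps25 stood at 248, 257, 235, 235 and 245 CPM in CON 1 to CON 5 and at 176, 199, 215, 180 and 195 CPM in MIA 1 to MIA 5. Every MIA library lay below every CON library. The means were 244 ± 9.45 and 193 ± 15.8 CPM (SD, n = 5 each), a log2 fold change of -0.34 with a standard error of 0.07 and an adjusted p of 0.00766 by edgeR. That is a difference of -20.9%, with a 95% interval from -28.8% to -12.2%.

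Rps10, the other small-subunit gene called lower, encodes a protein that is ubiquitinated when ribosomes stall and that is mutated in some families with Diamond-Blackfan anaemia. Rps10 stood at 209, 216, 226, 227 and 232 CPM in CON 1 to CON 5 and at 188, 193, 191, 187 and 193 CPM in MIA 1 to MIA 5. The MIA libraries lay close together and below all controls. Its log2 fold change was -0.22 ± 0.06 (standard error), with an adjusted p of 0.0275 by edgeR.

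In the large subunit, Rpl21 and Rpl23 were called lower. Rpl21 stood at 349, 437, 424, 454 and 428 CPM in CON 1 to CON 5 and at 330, 367, 354, 333 and 344 CPM in MIA 1 to MIA 5. CON 1 lay inside the MIA range, so the groups overlapped, while the other 4 controls were above every MIA library. The log2 fold change of Rpl21 was -0.28 ± 0.08 (standard error), with an adjusted p of 0.0371. Rpl23 encodes a protein on the face of the large subunit that meets the small one, and free Rpl23 binds Mdm2, the ubiquitin ligase of p53. Rpl23 stood at 456, 407, 384, 388 and 422 CPM in CON 1 to CON 5 and at 352, 361, 363, 334 and 328 CPM in MIA 1 to MIA 5. The groups did not overlap, and the log2 fold change was -0.24 ± 0.07 (standard error), with an adjusted p of 0.0382 by edgeR.

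The call of Rps25 held in 21 of 22 alternative analyses; the exception, with all 13 libraries, gave an adjusted p of 0.0592. The other calls were less stable: Rpl21 lost its call in 11, Rpl23 in 13 and Rps10 in 12 of the 22. The log2 fold change of each kept its sign throughout, between -0.38 and -0.26 for Rps25 and between -0.27 and -0.16 for Rps10. Values of the excluded libraries were scaled over all 13 libraries, and those of the retained libraries over the retained ones alone. Small gaps between these scales cannot be ranked. CON 6 had 191 CPM of Rps25, 191 of Rps10, 336 of Rpl21 and 314 of Rpl23. The control titled as excluded was thus lower than all 5 retained controls in each of the 4 genes. CON 6 also had 26910 CPM of summed microglial markers, below all retained controls, and 3094 CPM of endothelial markers, above all of them. MIA 7 lay above all 5 retained MIA libraries in each of the 4 genes, with 217 CPM of Rps25, 199 of Rps10, 379 of Rpl21 and 380 of Rpl23. MIA 6, with 196 CPM of Rps25, 194 of Rps10, 354 of Rpl21 and 331 of Rpl23, did so in Rps10 alone. The highest retained MIA value of Rps10 was close to that of MIA 6, 193 CPM in MIA 2. That of Rps25, 215 CPM in MIA 3, was close to MIA 7. MIA 6 and MIA 7 had 29280 and 29540 CPM of microglial markers, above all retained MIA libraries, and 2471 and 2716 CPM of endothelial markers, below all of them. The excluded libraries of both groups thus lay nearer to the other group in these markers than the retained ones did. With all 13 libraries, 0 members were called lower by edgeR, against 1.5% of all genes.

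**Figure D2:**
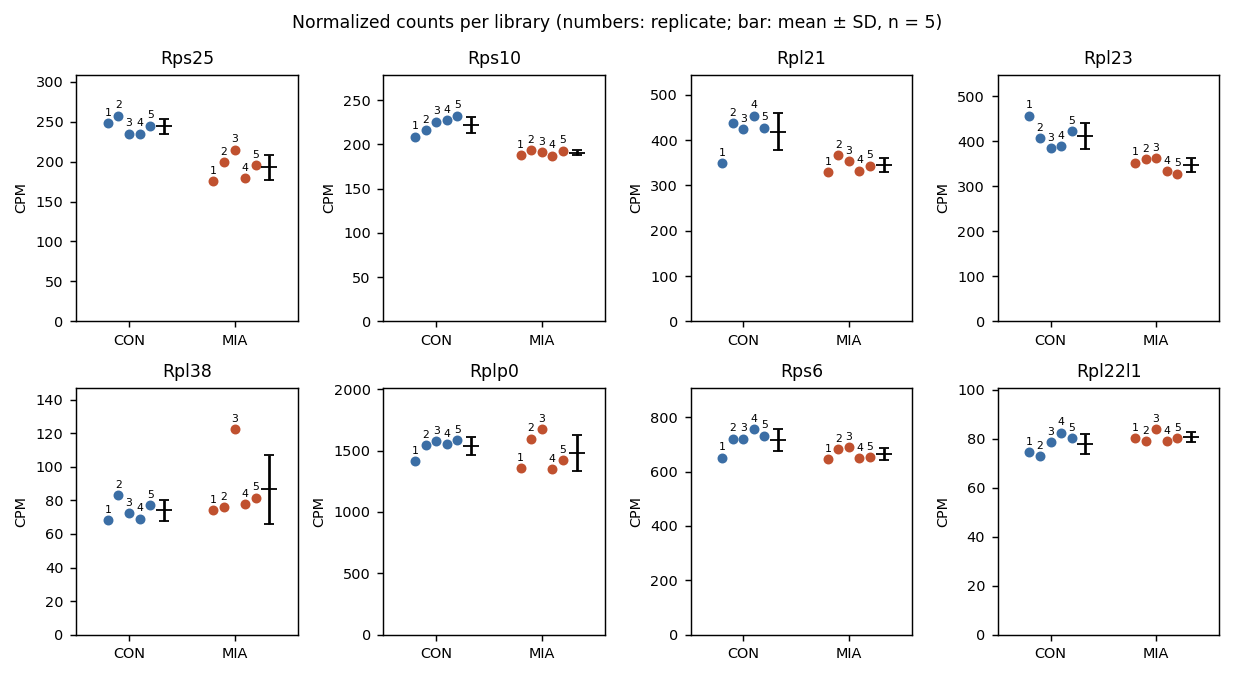
CPM (y axis, from 0) of 8 ribosomal protein genes in each retained library, with the replicate number above each point and the mean ± SD (n = 5) as a bar. Rps25, Rps10 and Rpl23 show no overlap of CON and MIA, in Rpl21 CON 1 lies among the MIA libraries, and Rpl38 is high in MIA 3 alone at 123 CPM (122.5 CPM unrounded).

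Core promoters are shown for called members with a RefSeq entry and for 3 others, Rps6, Rpl38 and Rpl15, because the start site carries the letters of the 5′ TOP motif. Each is 60 bases before and 20 bases from the RefSeq start (GRCm38.p6), written on the gene's strand. The positions are chr9:44407654-44407733 (plus strand) for Rps25, chr17:27635225-27635304 (minus) for Rps10 and chr11:97782420-97782499 (minus) for Rpl23. Those of the others are chr4:86857348-86857427 (minus) for Rps6, chr11:114668520-114668599 (plus) for Rpl38 and chr14:18270967-18271046 (minus) for Rpl15. Capitals mark the pyrimidine run (a C followed by at least 6 C or T, starting within 10 bases of the start) and the motif CGGAAG, the core bound by ETS factors.
Rps25: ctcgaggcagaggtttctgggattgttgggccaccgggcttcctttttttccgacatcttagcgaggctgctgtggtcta
Rps10: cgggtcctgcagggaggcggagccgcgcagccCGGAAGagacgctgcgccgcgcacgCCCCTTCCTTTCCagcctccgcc
Rpl23: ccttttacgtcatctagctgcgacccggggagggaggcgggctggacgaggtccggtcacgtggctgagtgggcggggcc
Rps6: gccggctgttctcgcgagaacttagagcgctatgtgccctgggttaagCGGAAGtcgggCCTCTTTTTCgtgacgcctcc
Rpl38: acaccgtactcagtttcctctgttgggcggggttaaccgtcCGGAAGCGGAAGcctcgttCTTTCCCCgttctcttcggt
Rpl15: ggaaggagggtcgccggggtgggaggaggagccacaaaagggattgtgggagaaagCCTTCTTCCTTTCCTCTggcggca
The run was 13 bases in Rps10, 10 in Rps6, 8 in Rpl38 and 17 in Rpl15, and the windows of Rps25 and Rpl23 held no run by this definition. The window of Rps25 does hold a pyrimidine run, cttcctttttttcc. It begins more than 10 bases before the RefSeq start and so was not counted.

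The RefSeq table matched 62 of the 85 members, with 73 promoters of 250 bases before to 50 bases after the start. The pyrimidine run was found in 41.1% of the member promoters, in 12.8% of the promoters of the other genes tested and in 12.2% of all promoters in the table. CGGAAG, searched on both strands, was found in 63.0% of them, against 27.8% and 16.9%. The motif AAGATGGC, the core bound by YY1, was found in 11.0%, against 3.91% and 2.75%. TATAAA was found in 9.59%, against 7.59% and 13.6%, and GGGCGG, the SP1 core, in 61.6%, against 59.9% and 35.7%. Members whose RefSeq promoter held the pyrimidine run had a median log2 fold change of -0.16 (27 members), and those without it -0.11 (30 members). The 2 groups held 1 and 2 of the called genes. For CGGAAG the medians were -0.148 with it (40 members, 3 called) and -0.144 without it (17 members, 0 called). Both splits cover fewer members than the 62 matched, and neither difference was tested. A match gives the letters in this window only.

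Rpl13a and Rpl12 just missed the threshold. Rpl13a, which in humans is also part of a complex that silences inflammatory mRNAs, had 490 ± 19.6 CPM in CON and 424 ± 23.8 in MIA, with no overlap and an adjusted p of 0.0578 by edgeR. It was picked out after its values were seen, as the fourth non-overlapping member. Rpl12, at the base of the stalk that recruits translation factors, had the next adjusted p, 0.0607. Rpl12 stood at 83.4, 97.3, 95.4, 92.4 and 97.2 CPM in CON 1 to CON 5 and at 67.6, 77.4, 93.2, 71.4 and 68.9 CPM in MIA 1 to MIA 5. Only MIA 3 reached the control range. Rps29, a small zinc-binding protein of the small subunit, was named for its fold change. It had 403 ± 56.3 CPM in CON and 328 ± 36.8 in MIA, and its adjusted p was 0.0958 by edgeR. Rps12 and Rpl35a, with adjusted p of 0.082 and 0.090 by edgeR, lay between Rpl12 and Rps29 in adjusted p. Rpl12 and Rps29, with Rps25, had the lowest log2 fold changes among members of at least 10 CPM, at -0.30, -0.30 and -0.34.

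At the other end stood Rpl38, Rpl22l1 and Rps4l, the highest fold changes among members of at least 10 CPM. Rpl38, which the mouse needs for translation of a subset of Hox mRNAs, stood at 68.4, 83.0, 72.3, 69.2 and 77.4 CPM in CON 1 to CON 5 and at 74.4, 76.2, 122.5, 77.7 and 81.6 CPM in MIA 1 to MIA 5. MIA 3 alone was far above the controls, and the other 4 MIA libraries lay within their range. Its log2 fold change was 0.22 ± 0.13 (standard error), with an adjusted p of 0.346 by edgeR. Among single members, only Rpl38, Rpl15 and Rps7 had a log2 fold change above 0, at 0.22, 0.04 and 0.03, and none of these passed the test.

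The P-stalk, which recruits elongation factors to the large subunit, consists of Rplp0 with Rplp1 and Rplp2. Rplp0, the most abundant member, stood at 1413, 1546, 1580, 1552 and 1588 CPM in CON 1 to CON 5 and at 1359, 1597, 1676, 1352 and 1424 CPM in MIA 1 to MIA 5. The groups overlapped, and MIA 3 was the highest of the 10 libraries. The log2 fold changes were -0.05 for Rplp0, -0.16 for Rplp1 and -0.21 for Rplp2, with adjusted p of 0.769, 0.360 and 0.142 by edgeR. The smallest had an unadjusted p of 0.0248.

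Rpl5 and Rpl11 carry the 5S rRNA into the large subunit and, when free, bind Mdm2. Their log2 fold changes were -0.19 and -0.17, with adjusted p of 0.265 and 0.274 by edgeR. Rpl3, near the peptidyl transferase centre, Rpl4, which lines the exit tunnel, and Rpl10, which joins late in maturation, were among the most abundant large-subunit genes. Rpl3 had 945 ± 20.1 CPM in CON and 870 ± 41.7 in MIA. Rpl4 had 1138 ± 73.3 and 1107 ± 84.4 CPM, and Rpl10 had 917 ± 93.5 and 834 ± 49.6 CPM. None of the 3 passed the test, and their log2 fold changes were -0.12, -0.04 and -0.14. Rpl41, the shortest ribosomal protein, had the highest level per kilobase of coding sequence, 4682 CPM per kb, and a log2 fold change of -0.09. Next on that scale came Rps29 at 2176 and Rplp0 at 1587 CPM per kb.

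In the small subunit, Rps6, the substrate of S6 kinase below mTORC1, stood at 651, 721, 721, 756 and 732 CPM in CON 1 to CON 5 and at 645, 683, 691, 649 and 653 CPM in MIA 1 to MIA 5. CON 1 again lay among the MIA libraries, and the other controls lay above all of them. The log2 fold change of Rps6 was -0.11, with an adjusted p of 0.350. Rpsa, also known as a laminin receptor, Rps2, at the mRNA entry channel, and Rps27a, which is made as a fusion to ubiquitin, had log2 fold changes of -0.06, -0.01 and -0.12. None of the 3 passed the test, with adjusted p of 0.746, 0.966 and 0.467 by edgeR.

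Fau and Rack1 also belong to the ribosome, although their symbols lie outside the rule. Fau, whose product is a ubiquitin-like protein fused to a small-subunit protein, had 613 ± 57.2 CPM in CON and 499 ± 52.6 in MIA. Its log2 fold change was -0.30 ± 0.09 (standard error) with an adjusted p of 0.0532 by edgeR, and DESeq2 and limma-voom called it lower. Rack1, a scaffold on the small subunit, had a log2 fold change of -0.05 and did not pass the test.

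Large and small subunits had nearly the same values. The median log2 fold change was -0.14 over the 51 large-subunit members and -0.13 over the 34 small-subunit members. In each subunit 2 members were called lower, and 47 of 51 and 31 of 34 were below 0. Library by library the median deviations from the control mean of both subunits ran together. The large minus the small median lay between -0.01 and 0.02 in CON and between -0.02 and 0.02 in MIA on the log2 scale. The position of the set varied more between libraries than these differences: the median of all members ran from -0.17 in CON 1 to 0.07 in CON 5, and from -0.21 in MIA 4 to 0.01 in MIA 3.

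**Figure D3:**
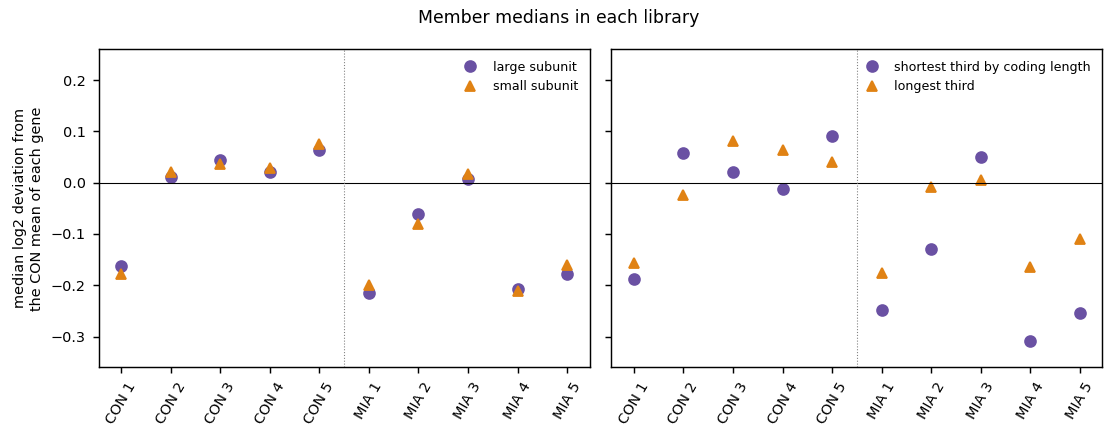
Median log2 deviation of members from the CON mean of each gene (y axis) in the 10 retained libraries (x axis), for large and small subunit (left) and for the shortest and longest coding members (right). CON 1 lies with MIA 1, MIA 4 and MIA 5, MIA 3 lies with the other controls, and the subunits differ by at most 0.02 in any library.

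CON 1 and MIA 3 stood apart from their groups. CON 1 had the lowest control value in 69 of the 85 members, and MIA 3 the highest MIA value in 62. The summed level of all members was 26459, 29944, 30851, 30263 and 30819 CPM in CON 1 to CON 5 and 25842, 28802, 30036, 25667 and 26630 CPM in MIA 1 to MIA 5. The groups overlapped: CON 1 lay below MIA 2, MIA 3 and MIA 5, and MIA 3 lay above CON 2. CON 1 also had the lowest summed level of 14 cell cycle genes, 1303 CPM, against 1905 to 2170 CPM in the other controls. CON 1 and CON 2 had 5268 and 5427 CPM of 20 dissociation and immediate early genes, against 14680 to 16190 CPM in the other 3 controls and 10490 to 12250 CPM in MIA. They also had 61.3 and 80.1 CPM of 7 erythroid genes, against 1160 to 2194 CPM in the other 3 controls and 1741 to 3049 CPM in MIA. MIA 3 had the highest endothelial sum, 4881 CPM, and the highest erythroid sum, 3049 CPM. The part of these in the ribosomal protein levels was not tested. Without CON 1, 16 members were called lower (18.8%, against 6.51% of all genes) and the median was -0.18. Without MIA 3, 8 were called lower (9.41%, against 3.58% of all genes) and the median was -0.17. Leaving out any other single library left 1 or 2 called lower (1.18 to 2.35%, against 2.32 to 4.04% of all genes), with medians between -0.15 and -0.11. Members varied together between libraries: after group means were removed, the median correlation between pairs of the 82 members of at least 10 CPM was 0.69 over the 10 libraries, which these genes share. It is given as a description.

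The members differ in whether the genome holds a second protein-coding or transcribed copy under a related symbol. Of the 85, 71 were counted as single, 6 belonged to a listed pair whose extra copy was tested (Rpl7, Rpl22, Rpl36a, Rpl39, Rps4x, Rps27), and 8 were extra copies themselves. Rpl3 and Rpl10 count as single because Rpl3l and Rpl10l did not pass the filter. Rps3a1 and Rpl6 count as single because their tested copies, Rps3a2 and Rpl6l, were not among the listed pairs; those copies made up under 1% of the CPM of each pair in every library. The single members had a median log2 fold change of -0.14, with 68 of 71 below 0 and 4 called lower. The members with an extra copy had a median of -0.09, with 6 of 6 below 0, and the extra copies one of -0.03, with 4 of 8 below 0. No member of either of these groups was called by edgeR, and at an unadjusted p under 0.05 the counts were 1 and 0. The extra copies were less abundant, with a median of 52.0 CPM against 310 CPM for single members, and their standard error was larger, with a median of 0.13 against 0.08. The difference between the classes was not tested.

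Within each pair the balance between the copies overlapped between groups. Rpl22l1, a paralog whose splicing Rpl22 can restrain, made up 53.4, 52.3, 54.5, 56.3 and 55.4% of the pair in CON 1 to CON 5 and 54.0, 55.2, 55.5, 56.6 and 56.0% in MIA 1 to MIA 5. Only MIA 4 lay outside the control range, just above it. Rpl36al made up 50.8 ± 2.16% of its pair in CON and 49.7 ± 1.45% in MIA. Both extra copies therefore gave about as many counts as the genes they are paired with. The shares were 19.6 ± 2.31% and 20.9 ± 1.78% for Rps27l, which p53 induces, and 13.2 ± 0.81% and 12.5 ± 0.41% for Rpl7l1. Rpl39l, a form best known from the testis, made up 1.67 ± 0.50% and 1.17 ± 0.60% of the pair with Rpl39, an exit tunnel protein. These pairs are alike but not identical in coding sequence. Over aligned bases the identity was 64.8% for Rpl7 and Rpl7l1, 72.7% for Rpl22 and Rpl22l1, 76.2% for Rps27 and Rps27l, 85.0% for Rpl39 and Rpl39l and 87.7% for Rpl36a and Rpl36al. The longest identical stretch in any of them was 38 bases, in Rpl39 and Rpl39l.

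**Figure D4:**
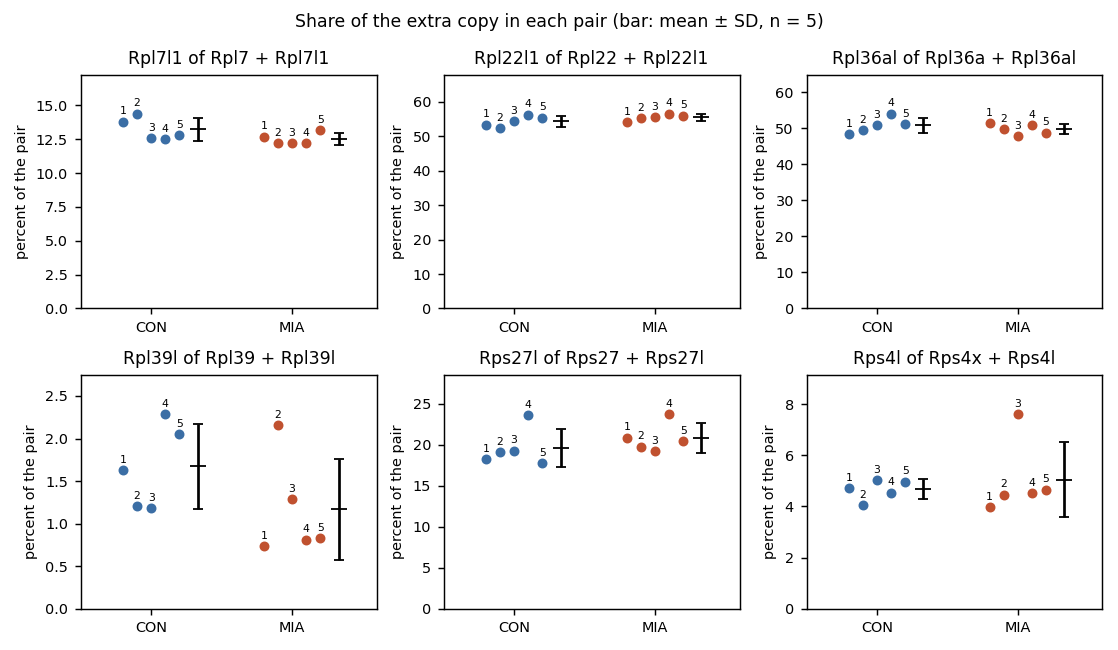
Share of the extra copy in the CPM of each of 6 pairs (y axis, percent of the pair, from 0) in the 10 retained libraries, with the replicate number above each point and the mean ± SD (n = 5) as a bar. CON and MIA overlap in all 6 pairs, and Rps4l reaches 7.62% in MIA 3 alone.

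Rps4l, a copy of the X-linked Rps4x that the GENCODE M21 annotation types as a processed pseudogene, as it does Rps3a2 and Rpl6l, made up 4.66 ± 0.39% of the pair in CON. In MIA it made up 3.97, 4.46, 7.62, 4.52 and 4.66% in MIA 1 to MIA 5, so MIA 3 alone lay above the controls. Rps4l stood at 55.6 CPM in MIA 3 and between 29.4 and 42.1 CPM in the other retained libraries. The 5 rows not tested were Rpl3l, Rpl10l, Rpl32l, Rps3a3 and Rps12l1. Of these Rps12l1 had 26 counts in MIA 3 and 0 counts in each of the other 12 libraries, and the highest count of the other 4 rows in any library was 14, for Rps3a3.

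Ribosomal protein genes share long stretches with retro-copies, so reads can be split between them. The deposited values are expected counts, which spread a read over the genes it fits, and 75 of the 85 members (88.2%) had a value that was not whole, against 28.9% of all genes tested. A -ps row exists for 61 members, 299 rows in all. These rows together held between 0.0494 and 0.0615% of the counts of a library, against 2.62 to 3.01% for the members. They exceeded 10% of the gene's own counts for 6 members: Rpl31 at 47.2%, Rpl15 at 43.1%, Rpl27 at 27.3%, Rpl28 at 25.5%, Rps12 at 25.1% and Rps23 at 22.4%. The levels of these 6 genes are uncertain for that reason. Read sharing is not limited to them. In 62 of the 85 members (72.9%) every nonzero value was not whole, the called Rps25, Rpl21 and Rpl23 among them. Only rows with a -ps symbol were counted, and sharing with rows of other names was not examined. With the -ps rows added to their genes, the same 4 genes were called lower and the median was -0.13.

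Fold change varied with the length of the coding sequence, taken from the GENCODE M21 annotation for the 77 members that are not extra copies. The 27 shortest (75 to 405 nt) had a median log2 fold change of -0.17, the 24 of middle length (408 to 564 nt) one of -0.14 and the 26 longest (576 to 1257 nt) one of -0.09. In the same order 1, 3 and 0 members were called lower. Spearman's rank correlation between coding length and log2 fold change was 0.42 over the 77 genes, and without Rpl38 it was 0.47 over 76. It stayed between 0.26, without CON 2, and 0.48, without CON 1, over the alternatives. The rank correlation was 0.38 for the mean CPM and 0.02 for the GC content of the transcript. Length and level are related in this family, the genes share the same 10 libraries, and the correlation is given as a description. By library, the median of the short members minus that of the long members was -0.03, 0.08, -0.06, -0.08 and 0.05 in CON 1 to CON 5 and -0.07, -0.12, 0.04, -0.145 and -0.145 in MIA 1 to MIA 5. The groups overlapped, with MIA 1 and MIA 3 inside the control range, MIA 1 near its lower end. The same difference was taken for other genes of at least 10 CPM, 467 of at most 405 nt and 7495 above 572 nt. It lay between -0.06 and 0.06 in CON and between -0.05 and 0.02 in MIA. The long set had no upper limit on length, so these genes do not match the members in length.

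**Figure D5:**
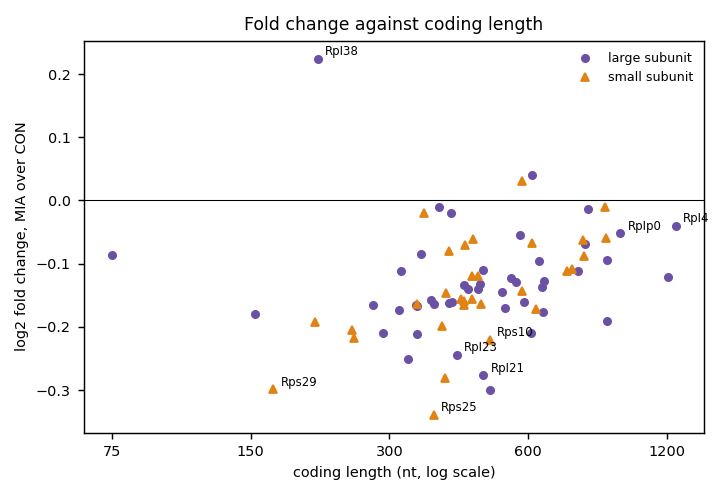
Log2 fold change (MIA over CON, y axis) against coding length (nt, log x axis) of the 77 ribosomal protein genes that are not extra copies, by subunit. The longest genes, such as Rpl4 and Rplp0, lie nearer 0 than most short ones, and Rpl38 lies apart at 0.22.

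The other translation genes showed few calls, in lists so small that the shares of all genes would also give few. Those shares were 5.75% higher and 4.58% lower by edgeR, 7.99% and 6.92% by DESeq2, and 6.19% and 4.61% by limma-voom. At an unadjusted p under 0.05 by edgeR they were 11.4% and 11.3%. Of 16 elongation factors and other genes with known TOP mRNAs, 0 passed in either direction by edgeR, DESeq2 or limma-voom, and 1 was lower at an unadjusted p under 0.05. Their median log2 fold change was -0.04. Eef1a1, the factor that delivers aminoacyl-tRNA, was the most abundant at 5637 ± 451 CPM in CON and 5640 ± 327 in MIA, a log2 fold change of 0.00 with an interval from -0.17 to 0.17. Eef2, the translocase, had a log2 fold change of -0.06. Of 24 initiation factors, 0 passed by any of the 3 tools and 1 was lower at an unadjusted p under 0.05, and the median was 0.01. Thus the elongation list, whose mRNAs share the TOP motif with the ribosomal proteins, had 10 of 16 genes below 0, and the initiation list 11 of 24. The difference between these lists and the ribosomal proteins was not tested. Among controls, both lists were lowest in CON 1. The elongation list summed to 9176 CPM in CON 1, 10010 to 10540 CPM in the other controls and 9599 to 10720 CPM in MIA. The initiation list summed to 4042, 4860 to 5231 and 4734 to 4971 CPM in the same order. The part of CON 1 in the list medians was not tested.

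Among 35 ribosome biogenesis factors, 28 were below 0, the median was -0.11 and 1 was called lower, where 4.58% of all genes were. That gene was Heatr1, needed for rRNA transcription and processing, with 42.1 ± 5.05 CPM in CON, 31.5 ± 3.70 in MIA and a log2 fold change of -0.42 (adjusted p 0.0255, edgeR). Ncl, the nucleolar protein nucleolin, was the most abundant and had a log2 fold change of -0.18 with an adjusted p of 0.220. Of 17 tested genes of RNA polymerase I and its factors, Taf1c alone was called lower, from 10.3 ± 1.27 to 6.75 ± 1.18 CPM, a log2 fold change of -0.62 (adjusted p 0.0309, edgeR). Of 23 regulators of ribosomal protein synthesis, Rictor, a core part of mTORC2, alone passed and was higher, from 8.67 ± 0.72 to 13.2 ± 2.98 CPM, a log2 fold change of 0.61 (adjusted p 0.0340, edgeR). Mtor had a log2 fold change of 0.01 and did not pass.

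Of 79 mitochondrial ribosomal proteins, 53 were below 0 and the median was -0.04. In this list 2 were called lower, where 4.58% of all genes were: Mrps2 and Mrpl43, at -0.28 and -0.27. Of 12 ribosome quality control genes and 9 snoRNA host genes, 0 passed by edgeR, DESeq2 or limma-voom. At an unadjusted p under 0.05, 1 quality control gene was higher and 1 host gene was lower.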

How the data were processed

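Expression was measured by RNA-seq (a modified Smart-Seq2 protocol, primed on poly(A), not marking strand). Expected counts for 13 libraries were deposited by the authors as 1 table, not normalized; the submitters' processing notes name STAR, RSEM and DESeq2 with no version or role, and genome build and annotation were not given in the sources used here. Expected counts were rounded. Symbols were matched by Ensembl gene ID (55141 of 55487). Members, lists and rules were chosen with earlier results of these data known. The 5 retained CON and 5 retained MIA libraries were compared with edgeR 4.0.16 under R 4.3.3 (filter by filterByExpr, TMM scaling, robust quasi-likelihood test with group as sole factor), with Benjamini-Hochberg adjustment over 15511 genes. The standard error is the log2 fold change divided by the root of F. Library deviations use log2 CPM with a prior count of 2. No list was tested. The row CT010467.1 took 14.6 to 18.8% of counts.

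Named members were those called, the 3 highest and 3 lowest fold changes at 10 CPM or more, the 3 most abundant per subunit by CPM and the 3 by CPM per kb, the pairs, and genes named for their role. For other translation lists, called genes and the most abundant were named. Coding lengths are of GENCODE M21 and promoters of RefSeq (GRCm38.p6), used by gene name. The deposited counts' depth limits precision through counting error only; reads carried no molecular identifiers. Alternatives were other scalings, filters, DESeq2 1.42.0, limma-voom (limma 3.58.1), a replicate block, added pseudogene rows, all 13 libraries, and libraries left out. The pipeline was tested on simulated data.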

Additional observations from a re-analysis of the deposited data

Results flagged for a closer look

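In 11 of 72 groups of 5 libraries checked among the named members and library summaries, 1 library lay far from the other 4. Chance gives about 1 in 20. Over all members it was 19 of 170 groups. CON 1 was the low library for the summed level of members (26459 CPM), the median deviation of members (-0.167, log2), Rpl21 (349 CPM), Rplp0 (1413 CPM), Rps2 (713 CPM) and Rps27a (433 CPM). MIA 3 was the high library for Rpl38 (122.5, rounded to 123 CPM), Rpl41 (423 CPM), Rpl22l1 (84.0 CPM) and Rps4l (55.6 CPM). MIA 5 was the low library for Rpl39 (114 CPM). These flags are not independent, since members vary together between libraries.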

How the results depend on the processing

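No member was called higher in the main analysis or in any of the 22 alternatives. The number called lower, 4 in the main analysis, was 7 with upper-quartile scaling, 1 with scaling to total counts, 2 with no filter on low counts, 7 with DESeq2, 0 with all 13 libraries and 11 with both CON 1 and CON 2 left out. In the same order 5.47, 3.2, 2.36, 6.92, 1.5 and 5.38% of all genes were called lower, against 8.24, 1.18, 2.35, 8.24, 0 and 12.9% of members. Leaving out 1 library at a time gave 1 to 16. The median log2 fold change of members stayed below 0, from -0.19 with CON 1 and CON 2 left out to -0.08 with scaling to total counts, which moved the median of all genes to 0.05. The large minus the small median, -0.00583 in the main analysis, was 0.00732 with the strict filter (10 CPM in 5 libraries), and it ran from -0.02 to 0.02 (-0.0232 to 0.0158) when 1 library was left out, so its sign was not fixed. Where a count changed, the cause was not tested. Replicate numbers gave no clear pairing of the samples: the correlation of same-numbered libraries ran from 0.058 to 0.302, and 1 of 5 was highest for its own number. So few correlations cannot exclude a pairing, and the labels do not state one. With a replicate block 4 members were called lower and 0 higher, the median was -0.133 and the large minus small difference -0.00216; 2 of the 4 main calls, Rps25 and Rpl21, were among them, with Rpl12 and Rps12. Among the named members, 37 alternative values lost a call and 13 gained one.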

Other observations

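Of the 299 -ps rows of ribosomal protein genes, 42 were tested and 0 were called by edgeR. Of all genes, 5.75% were called higher and 4.58% lower, shares that would also give few calls among 42 rows. Of the -ps rows, 10 had a mean of at least 10 CPM. Rpl27-ps3 varied most among these 10: it stood at 35.6, 35.4, 37.9, 63.7 and 12.6 CPM in CON 1 to CON 5 and at 27.5, 15.7, 11.6, 54.1 and 28.9 CPM in MIA 1 to MIA 5. Its highest library was 5.50 times its lowest, while Rpl27 itself varied by 1.29 times. Low values occurred in both groups. The other 9 rows varied by 1.21 to 2.01 times. Among the 77 members that are not extra copies, the median ratio of the highest to the lowest library was 1.31 and the largest 1.79.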
